A study of Mus musculus with 24 samples.

Results

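The BTG/TOB and Zfp36 genes encode proteins that shorten the life of messenger RNAs, and 8 of them were followed here: Btg1, Btg2, Btg3, Tob1, Tob2, Zfp36, Zfp36l1 and Zfp36l2. They were chosen by symbol from the 45792 genes of the count table, and all 8 passed the filter on low counts that left 16777 genes. The family itself was selected on earlier results of these data, in which the 30 min values of Btg2 and Tob1 were known, so all 30 min values are a description. The control libraries behind the 30 min changes also serve the tests of the 24 h response and of KO against WT in the control. Those tests are therefore not fully separate from the selection. No p is given for a member at 30 min. The numbers of members past the model's threshold at 30 min stand beside the share of all genes. They return in the closing section on processing, in part without that share. The neurons were primary cortical neurons of E16.5 mouse embryos after 12 days in culture. One genotype was wild type (WT). The other is labelled H2BE-KO/mCherry-KI (KO), a knockout of a histone H2B variant gene with mCherry knocked in. Each genotype was left untreated (control) or given BDNF for 30 min or 24 h, with 4 replicates in each of the 6 groups, so every KO group carries the mCherry insertion as well as the knockout. BDNF (brain-derived neurotrophic factor) acts on neurons through the TrkB receptor and switches on rapid transcription.

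Deadenylation, the trimming of the poly(A) tail, is usually the first step in the decay of an mRNA, and most of it is done by the CCR4-NOT complex. BTG and TOB proteins share an N-terminal domain that binds the Caf1 deadenylase subunits of that complex, encoded by Cnot7 and Cnot8, and TOB proteins also bind cytoplasmic poly(A)-binding protein, so they stimulate the trimming of many mRNAs. The ZFP36 proteins are zinc finger proteins that bind AU-rich elements in 3′ untranslated regions and bring CCR4-NOT to those mRNAs, many of which encode cytokines and rapid-response transcription factors. Btg2 and Zfp36 are themselves classic immediate early genes, whose transcription starts within minutes of a growth factor or depolarising stimulus, and Btg2 is also known as a marker of neurogenic progenitors in the developing cortex.

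The libraries held 19780486 to 62135270 counts. Neuronal markers were high in all of them (Map2 at 1813 to 2717 CPM, counts scaled to the normalised library size), and the 10 microglia and macrophage markers summed to at most 7.7 CPM. Hist2h2be, the gene targeted in the KO, was at 3.15 to 5.83 CPM in WT libraries and at 50 to 63.1 CPM in 11 of the 12 KO libraries, so it separates the genotypes but its counts do not check the deletion. The library labelled KO 24 h replicate 4 stood apart with 21.2 CPM. It also held both Xist (145 CPM) and Y-linked reads (140 CPM over 4 genes), whereas each of the other 23 libraries held either Xist at 423 CPM or more or Y-linked reads at 129 CPM or more and little of the other. Mitochondrial genes took 10.9% to 21.7% of the counts in KO culture 4 and 7.52% to 9.34% in KO culture 3, against 4.18% to 6.4% in WT and 4.2% to 5.77% in the remaining KO cultures. KO 30 min replicate 3 was the shallowest library. Values of the members that these libraries moved are also given without them, leaving out KO culture 4 and KO 30 min replicate 3.

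Promoter sequences are shown first for the 4 members with the largest changes at 30 min in WT and for Zfp36, a textbook growth factor target, because they can be read against the responses. The RefSeq table (GRCm38.p6, the mm10 assembly) held windows for 7 of the 8 members, and the 250 bases before the annotated RefSeq start are printed 5′ to 3′ on the gene's strand. Capitals mark matches, on either strand, to the cyclic AMP response element (CRE) TGACGTCA, the shorter core TGACG of that element, the serum response factor CArG box, or the EGR site GCGGGGGCG or GCGTGGGCG. The Btg2 window is chr1:134079156-134079405 (minus strand), that of Tob1 is chr11:94211204-94211453 (plus strand), that of Btg1 is chr10:96616751-96617000 (plus strand), that of Tob2 is chr15:81858327-81858576 (minus strand) and that of Zfp36 is chr7:28379229-28379478 (minus strand).
Btg2: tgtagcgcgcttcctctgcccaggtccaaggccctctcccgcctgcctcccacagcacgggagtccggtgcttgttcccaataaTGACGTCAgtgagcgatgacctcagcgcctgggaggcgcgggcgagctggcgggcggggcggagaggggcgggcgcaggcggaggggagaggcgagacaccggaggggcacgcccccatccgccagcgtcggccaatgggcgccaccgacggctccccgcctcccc
Tob1: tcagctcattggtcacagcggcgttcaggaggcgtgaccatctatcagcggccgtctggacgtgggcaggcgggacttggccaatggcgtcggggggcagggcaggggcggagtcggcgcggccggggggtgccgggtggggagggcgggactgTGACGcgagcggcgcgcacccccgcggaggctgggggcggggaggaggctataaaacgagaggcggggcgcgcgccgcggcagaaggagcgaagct
Btg1: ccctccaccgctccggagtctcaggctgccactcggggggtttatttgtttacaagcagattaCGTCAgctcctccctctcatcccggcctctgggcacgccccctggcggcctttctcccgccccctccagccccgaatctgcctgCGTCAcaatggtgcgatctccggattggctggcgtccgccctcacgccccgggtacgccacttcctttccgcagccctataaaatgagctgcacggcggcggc
Tob2: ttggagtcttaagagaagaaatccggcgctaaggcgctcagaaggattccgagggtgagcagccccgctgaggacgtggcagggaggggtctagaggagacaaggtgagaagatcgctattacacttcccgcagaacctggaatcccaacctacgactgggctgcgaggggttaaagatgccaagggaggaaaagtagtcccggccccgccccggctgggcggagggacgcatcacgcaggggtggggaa
Zfp36: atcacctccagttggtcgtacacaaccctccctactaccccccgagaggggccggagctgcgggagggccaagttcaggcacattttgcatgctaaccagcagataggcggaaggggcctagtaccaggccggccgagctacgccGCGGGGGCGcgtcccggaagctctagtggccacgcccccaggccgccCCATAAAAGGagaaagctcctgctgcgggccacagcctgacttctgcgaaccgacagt
The full CRE of Btg2 lay 166 to 159 bases before the start, and 1.55% of the 32851 windows in the table held one. It contains the 2 cores counted for Btg2, since the element is a palindrome. Tob1 held 1 core (96 to 92 bases before the start) and Btg1 held 2 (187 to 183 and 103 to 99 bases before it), where 17.8% of all windows held at least 1. Zfp36 held a CArG box 58 to 49 bases before the start (1.47% of windows) and an EGR site 105 to 97 bases before it (3.06% of windows). None of these letters was found in the windows of Tob2, Btg3 (which has 2 windows) or Zfp36l1.

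AU-rich elements, the sites that ZFP36 proteins bind, were searched in the 3′ untranslated region of 1 GENCODE M21 transcript per gene. The letters were the heptamer UAUUUAU and the nonamer UUAUUUAUU, which contains the heptamer. The nonamer was found in the 3 Zfp36 genes, each with 1 copy, and in none of the BTG/TOB genes. The 3 sites are shown, with the nonamer in capitals, because each of these mRNAs holds the element that its own protein family binds.
Zfp36: ugacgacuUUAUUUAUUguauuaag
Zfp36l1: cuguuggaUUAUUUAUUuuagaaau
Zfp36l2: uauuuaacUUAUUUAUUaucuugug
Each Zfp36 gene held 3 heptamers, Btg3 held 2, Btg2 and Tob2 held 1, and Btg1 and Tob1 held 0. Of 13543 transcripts searched in the same way, 27.6% held the heptamer and 7.24% the nonamer. The regions differed in length, from 439 bases in Btg3 to 4166 in Btg1, with 774, 1835 and 1822 in Zfp36, Zfp36l1 and Zfp36l2. The median over the transcripts searched was 962 bases. The counts and shares are not scaled to length.

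In untreated WT neurons the 8 genes spanned a wide range of levels. Compared per kilobase of exon, Tob1 was highest at 8.58 ± 1.23 CPM per kilobase (SD, n = 4 in every group here and below). Btg2 (4.58 ± 0.243) and Btg1 (4.37 ± 0.419) followed and did not differ beyond their spread. Tob2 was at 2.21 ± 0.147, and the other 4 were far lower: Zfp36l2 at 0.319 ± 0.0824, Btg3 at 0.15 ± 0.0531, Zfp36 at 0.092 ± 0.0302 and Zfp36l1 at 0.0877 ± 0.0555 CPM per kilobase, of which the last 3 overlapped in their spreads. In counts, Zfp36 had 415 and Zfp36l1 274 over all 24 libraries, so single libraries held between 0 and 54 counts of Zfp36 and between 2 and 27 of Zfp36l1. Btg3 had 1081 and Zfp36l2 1392 counts in all, while Btg2 had 104516. Of the other family symbols, Btg4 had 68 counts and Zfp36l3 had 0.

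**Figure D1:**
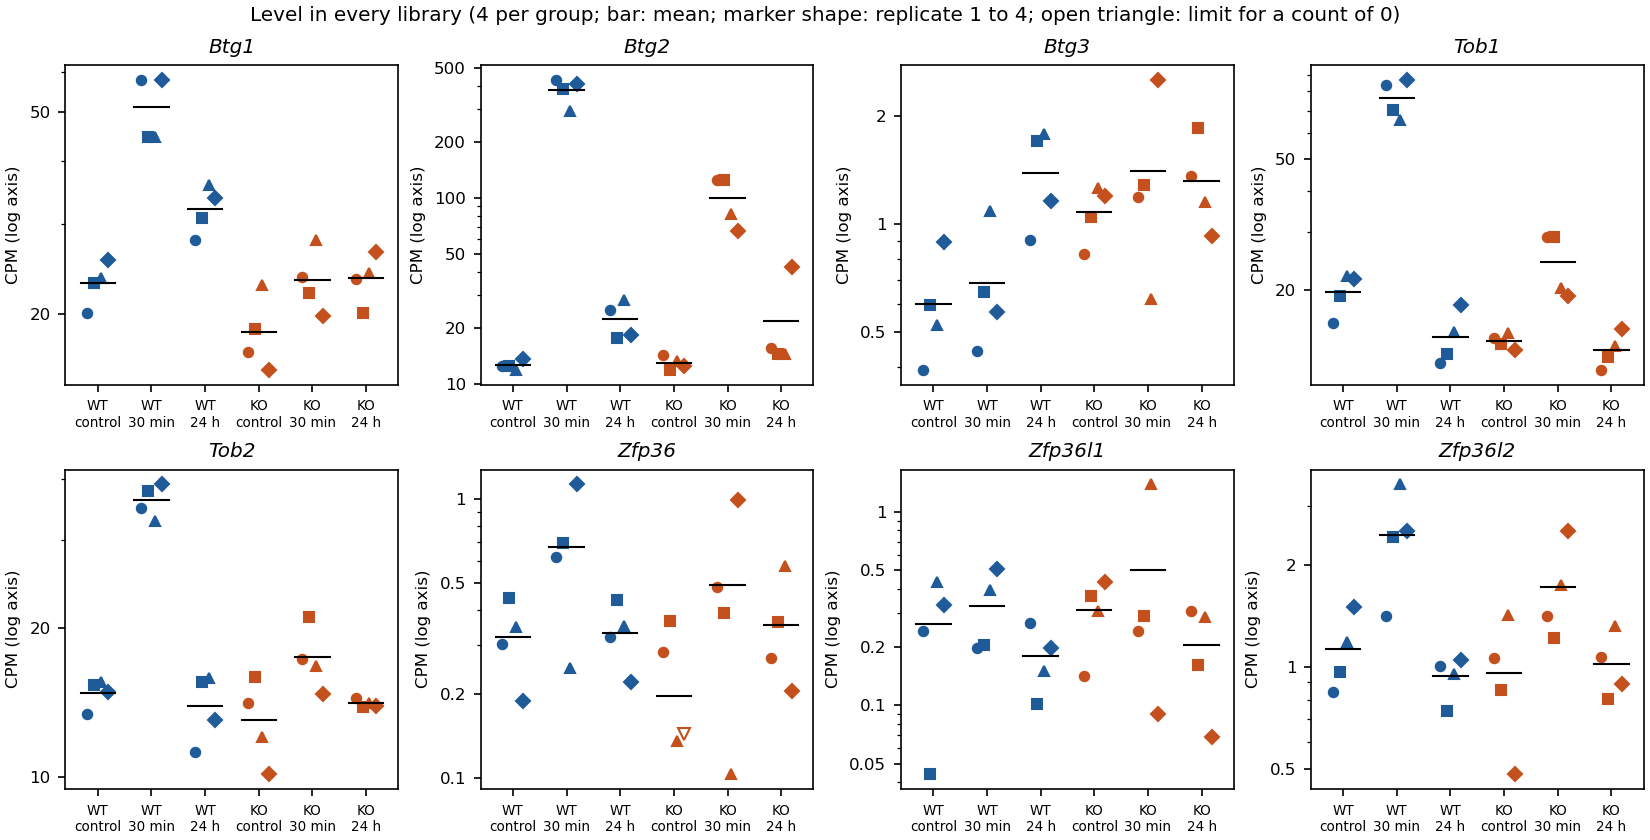
Level of each gene in each of the 24 libraries, in CPM on a log axis, with WT in blue, KO in orange, marker shapes for replicates 1 to 4 and a bar at the group mean of 4 libraries; the open triangle is the limit that a count of 0 allows. Btg2, Tob1, Btg1 and Tob2 stand highest in the 4 WT 30 min libraries, and Btg2 stands out at 42.6 CPM in KO 24 h replicate 4.

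Btg2 (chr1:134075170-134079120, minus strand, mm10) was the member with the largest change at 30 min. In WT it was at 12.4, 12.5, 11.8 and 13.5 CPM in replicates 1 to 4 of the control and at 432, 383, 293 and 412 CPM after 30 min of BDNF. In KO it was at 14.3, 11.8, 13.3 and 12.4 CPM in the control and at 125, 125, 82.0 and 66.2 CPM after 30 min. All 8 control libraries lay within 11.8 to 14.3 CPM, and at 30 min the highest KO library lay below the lowest WT library. The log2 fold change was 4.92 ± 0.31 (SE) in WT, 30.2-fold, and 2.94 ± 0.29 in KO, 7.69-fold. The KO mean at 30 min was 26.2% of the WT mean. Within KO the cultures with high mitochondrial shares, 3 and 4, were the lower ones at 30 min. Without the libraries that stood apart the KO log2 fold change was 3.25 ± 0.17, and the difference in response, KO minus WT, was -1.66 ± 0.22 on the log2 scale against -1.97 ± 0.39 with them.

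Tob1 (chr11:94211454-94215495, plus strand), whose product binds both deadenylase and poly(A)-binding protein, came next in WT. It was at 15.9, 19.1, 22.0 and 21.5 CPM in the WT controls and at 83.8, 70.5, 65.6 and 86.8 CPM in WT at 30 min. In KO it was at 14.3, 13.7, 14.8 and 13.1 CPM in the controls and at 29.0, 28.9, 20.2 and 19.2 CPM at 30 min. The 30 min libraries lay above the control libraries of their genotype without overlap, and 2 of the 4 KO libraries at 30 min lay within the range of the WT controls. The log2 fold change was 1.97 ± 0.16 in WT and 0.80 ± 0.15 in KO, or 1.02 ± 0.16 in KO without the libraries that stood apart.

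Tob2 (chr15:81848272-81858796, minus strand), the close relative of Tob1, was at 13.4, 15.3, 15.5 and 14.8 CPM in the WT controls and at 34.9, 37.8, 32.8 and 39.0 CPM in WT at 30 min. In KO it was at 14.1, 15.9, 12.0 and 10.1 CPM in the controls and at 17.3, 21.0, 16.7 and 14.7 CPM at 30 min, and these groups overlapped. Each KO culture was nevertheless higher at 30 min than its own control, by 1.22- to 1.46-fold, against 2.11- to 2.63-fold in the WT cultures.

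Btg1 (chr10:96617006-96622809, plus strand), the paralogue of Btg2 known for its role in quiescent lymphocytes, was at 20.1, 23, 23.5 and 25.5 CPM in the WT controls and at 57.7, 44.5, 44.5 and 57.8 CPM in WT at 30 min. In KO it was at 16.8, 18.7, 22.8 and 15.5 CPM in the controls and at 23.6, 22.0, 27.9 and 19.8 CPM at 30 min. The WT groups did not overlap and the KO groups did. The log2 fold change was 1.15 ± 0.14 in WT and 0.33 ± 0.14 in KO, or 0.23 ± 0.15 in KO without the libraries that stood apart. Btg1 had a WT control level per kilobase within the spread of that of Btg2, and its log2 fold change at 30 min was the smaller one in both genotypes.

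Btg3 (chr16:78332637-78377192, minus strand) showed no such course. Its libraries ran from 0.391 to 0.894 CPM in the WT controls and from 0.443 to 1.09 CPM in WT at 30 min, with log2 fold changes of 0.18 ± 0.39 in WT and 0.38 ± 0.38 in KO (0.26 ± 0.38 without the libraries that stood apart). Exons of Btg3 overlap those of Cxadr on the opposite strand, which had 516007 counts against 1081 of Btg3. No source used here gives the strand setting of the counting, so a share of Cxadr reads in the Btg3 counts cannot be told apart.

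The Zfp36 genes gave too few counts for a firm course. Zfp36 (chr7:28376784-28380253, minus strand), encoding tristetraprolin, held 10, 20, 12 and 8 counts in the WT controls and 28, 44, 10 and 54 counts in WT at 30 min, or 0.301, 0.44, 0.348 and 0.188 CPM against 0.62, 0.693, 0.247 and 1.13 CPM. Its count was 0 in KO control replicate 4, which allows up to 0.144 CPM (3 counts, counting error only). Zfp36l1 (chr12:80107754-80113013, minus strand) lay between 0.044 and 0.504 CPM in 23 libraries and at 1.39 CPM, from 27 counts, in the shallow KO 30 min replicate 3. Zfp36l2 (chr17:84183931-84187947, minus strand) was at 0.842, 0.967, 1.19 and 1.51 CPM in the WT controls and at 1.42, 2.42, 3.48 and 2.52 CPM in WT at 30 min, with 1 library of each group overlapping. The log2 fold changes in WT were 1.07 ± 0.61 for Zfp36, 0.32 ± 0.69 for Zfp36l1 and 1.12 ± 0.32 for Zfp36l2, and in KO 1.19 ± 0.64, 0.64 ± 0.70 and 0.83 ± 0.33. Without the libraries that stood apart the KO values were 0.68 ± 0.55 for Zfp36, -0.04 ± 0.67 for Zfp36l1 and 0.26 ± 0.34 for Zfp36l2.

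**Figure D2:**
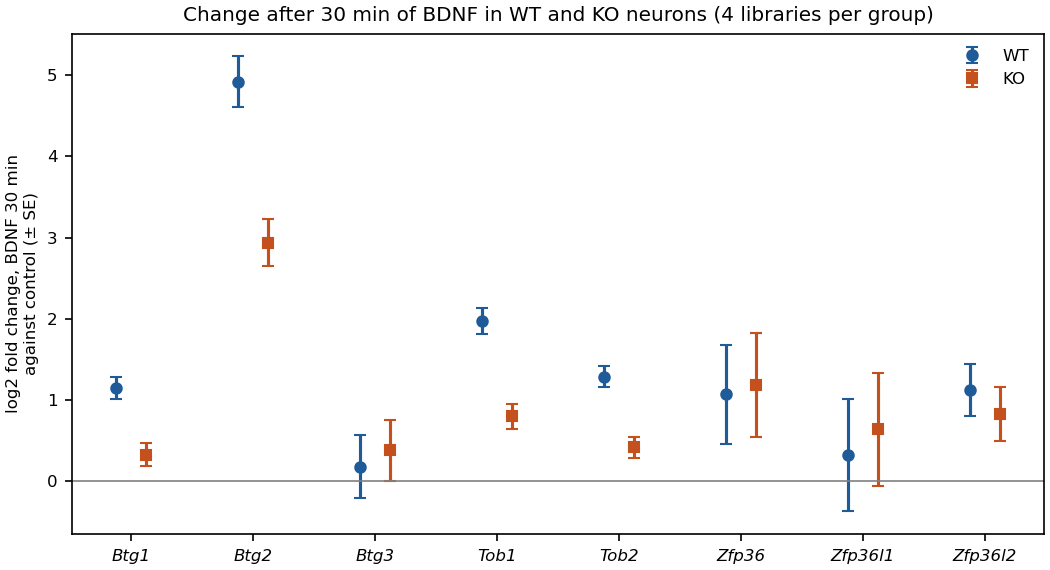
Log2 fold change after 30 min of BDNF against the control of the same genotype for each gene, WT in blue and KO in orange, with bars of 1 SE from the edgeR model (4 libraries per group). Btg2 is highest in both genotypes (4.92 and 2.94), Tob1, Tob2 and Btg1 are higher in WT than in KO, and the bars of the Zfp36 genes overlap between genotypes.

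As counts, 4 of the 8 members were past an adjusted p of 0.05 in WT at 30 min (Btg2, Tob1, Tob2 and Btg1, all higher), where 0.37% of all genes tested were. In WT with the culture as a replicate block, 5 members were, against 1.15% of all genes. In KO 2 members were (Btg2 and Tob1, both higher), against 0.125% of all genes. With the culture as a replicate block 1 was (Btg2), against 0.13% of all genes. Of the difference between the genotypes in this response, 1 member was past the threshold (Tob1, smaller in KO), against 0.0477% of all genes. It was 3 members with the replicate block (0.179% of all genes) and 3 with DESeq2 (0.048% of 45792 genes). Between KO and WT at 30 min 5 members were, with Btg1, Btg2, Tob1 and Tob2 lower and Btg3 higher in KO, against 28.4% of all genes. These counts restate the values the family was selected on and support nothing further. The difference in response, KO minus WT, was -1.97 ± 0.39 for Btg2, -1.16 ± 0.21 for Tob1, -0.87 ± 0.19 for Tob2 and -0.82 ± 0.19 for Btg1 on the log2 scale, or -1.66 ± 0.22, -0.94 ± 0.20, -0.84 ± 0.18 and -0.91 ± 0.19 without the libraries that stood apart. For Zfp36, Zfp36l1 and Zfp36l2 it was 0.12 ± 0.86, 0.32 ± 0.98 and -0.30 ± 0.46 with those libraries and -0.39 ± 0.70, -0.35 ± 0.86 and -0.86 ± 0.43 without them.

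By 24 h the levels of these 4 genes had come down from the 30 min peak in WT. In the WT cultures the 24 h level of Btg2 was 4.42% to 9.59% of the level in the same culture at 30 min, that of Tob1 14.4% to 22.7%, that of Tob2 32.2% to 48.1% and that of Btg1 48.5% to 80.5%. In KO cultures 1 to 3, Btg2 at 24 h was at most 17.6% of its 30 min level, and in culture 4 it was 64.4%. Tob1 in KO was at 39.4% to 79.1% and Tob2 at 65.7% to 94.7% of the 30 min level. Btg1 in KO had no clear peak, with a 24 h level of 86.5% to 134% of that at 30 min. The course was therefore sharpest for Btg2 and flattest for Btg1 among these 4 genes.

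**Figure D3:**
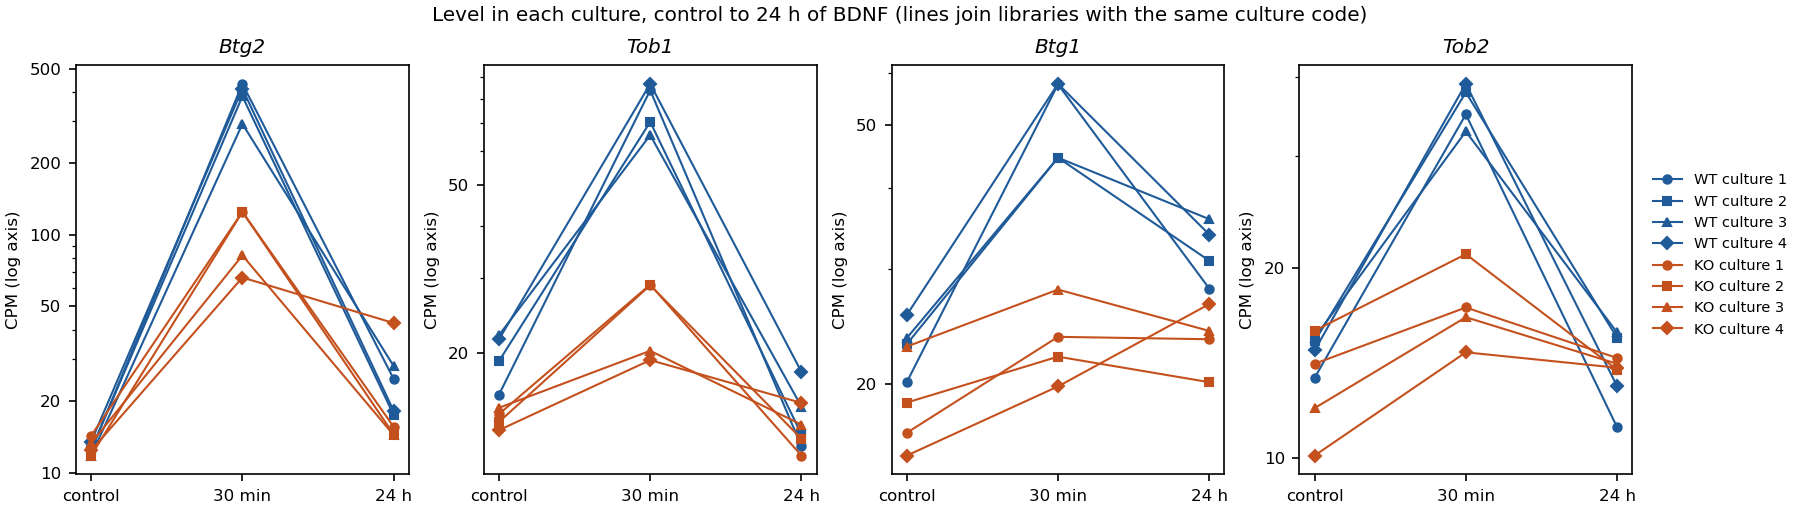
Level of Btg2, Tob1, Btg1 and Tob2 in CPM (log axis) in each culture from control to 30 min and 24 h of BDNF, with a line for each of 4 WT (blue) and 4 KO (orange) cultures. The WT lines peak at 30 min above all KO lines, and the Btg2 line of KO culture 4 stays at 42.6 CPM at 24 h where the other KO lines end at 14.4 to 15.6 CPM.

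At 24 h of BDNF in WT, 3 members rose and 1 fell: Btg1, Btg2 and Btg3 were higher and Tob1 lower than in the control. These 4 of 8 stand against 18.7% of all genes tested (9.55% higher and 9.13% lower), and the median log2 fold change of the 8 members was -0.02, that of all genes -0.01. Btg2 was at 24.8, 17.5, 28.1 and 18.2 CPM, above all 4 controls (at most 13.5 CPM), a log2 fold change of 0.81 ± 0.27 (adjusted p = 0.0403). Btg1 was at 28.0, 30.9, 35.8 and 33.9 CPM, also above all controls, with 0.48 ± 0.13 (adjusted p = 0.0137). Btg3 was at 0.903, 1.71, 1.78 and 1.16 CPM, just above the controls, with 1.20 ± 0.39 (adjusted p = 0.0321). Tob1 was at 12.0, 12.8, 14.9 and 18 CPM, overlapping the controls, with -0.44 ± 0.15 (adjusted p = 0.0432), and it was lower than the control in each of the 4 cultures. Tob1 therefore stood on opposite sides of its control at 30 min and at 24 h, whereas Btg1 and Btg2 stayed on the same side. For Tob2, Zfp36, Zfp36l1 and Zfp36l2 the changes ran from -0.53 to 0.05 and did not pass the test. The progenitor and cycling cell markers also summed higher at 24 h (91.6 to 141 CPM against 48.3 to 69.5 CPM in the WT controls, 10 genes), as did the oligodendrocyte lineage markers (55.8 to 88.1 CPM against 35.1 to 44.0 CPM, 8 genes). Over all libraries the largest gene was Vim in the first sum (24.9 to 124 CPM) and Mbp in the second (14.8 to 75.5 CPM). The cycling genes Mki67, Top2a, Cdk1 and Ccnb1 were at most 1.86 CPM, so each sum weighs mostly on 1 gene. The part of these markers in the changes was not tested.

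In the main fit, which takes no account of the shared cultures, these 24 h calls in WT lay near the threshold. Each was lost when single libraries were left out of that fit. Btg1 was lost without 24 h replicate 3 (adjusted p = 0.0613) or control replicate 1 (0.0569). Btg2 was lost without 24 h replicate 1 (0.0981) or 3 (0.144), or without control replicate 1 (0.0837), 2 (0.0804), 3 (0.0892) or 4 (0.0695). Btg3 was lost without 24 h replicate 2 (0.0938) or 3 (0.1), or control replicate 1 (0.103), 2 (0.0696) or 3 (0.0798), and with no filter on low counts (0.0688). Tob1 was lost without 24 h replicate 1 (0.144), 2 (0.135) or 3 (0.0776), or control replicate 2 (0.0698), 3 (0.126) or 4 (0.121), and with no filter (0.0684). The directions held in every one of these fits. With the culture as a replicate block all 4 passed edgeR's test, with adjusted p of 4.44e-04 (Btg1), 1.6e-04 (Btg2), 0.00399 (Btg3) and 0.00291 (Tob1). Without the libraries that stood apart, left out after seeing the data, they were 0.00347, 1.37e-04, 0.00658 and 0.00952. The library names in the labels follow 2 styles whose meaning is not stated, the second of which holds WT replicates 3 and 4 and KO replicates 2 to 4. Within each style, every WT culture showed the same direction for the 4 genes, and in the second style alone the log2 fold changes were 0.50 (Btg1), 0.86 (Btg2), 1.03 (Btg3) and -0.41 (Tob1), none past the threshold with 2 WT cultures.

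In KO at 24 h none of the 8 members passed edgeR's test, against 5.61% of all genes, and 2 had an unadjusted p under 0.05. DESeq2 called none either. Btg1 was at 23.4, 20.1, 24.1 and 26.5 CPM, overlapping its controls, with a log2 fold change of 0.35 ± 0.14 (adjusted p = 0.145), or 0.22 ± 0.13 without the libraries that stood apart. Btg2 was at 15.6, 14.5, 14.4 and 42.6 CPM, with 0.75 ± 0.27 (adjusted p = 0.117), and this value rests on replicate 4: without the libraries that stood apart it was 0.19 ± 0.16 (adjusted p = 0.528). Tob1, at 11.4, 12.5, 13.5 and 15.2 CPM, had -0.09 ± 0.15, and Btg3 had 0.29 ± 0.38 (-0.19 ± 0.14 and 0.50 ± 0.35 without those libraries). The progenitor and cycling cell markers, of which Vim was the largest, summed to 121 to 132 CPM at 24 h against 42.0 to 62.4 CPM in the KO controls. Their part was not tested. The difference between the genotypes in the 24 h response was called for none of the 8 members by edgeR, with no member at an unadjusted p under 0.05, against 0.0358% of all genes. Its 95% intervals, as log2 KO minus WT, ran from -0.53 to 0.26 for Btg1, from -0.86 to 0.74 for Btg2, from -2.02 to 0.21 for Btg3 and from -0.09 to 0.80 for Tob1. Without the libraries that stood apart the Btg2 difference was -0.62 ± 0.21 (unadjusted p = 0.00689, adjusted p = 0.216), against -0.06 ± 0.39 with them. The calls in WT and their absence in KO are thus not shown to differ between the genotypes.

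**Figure D4:**
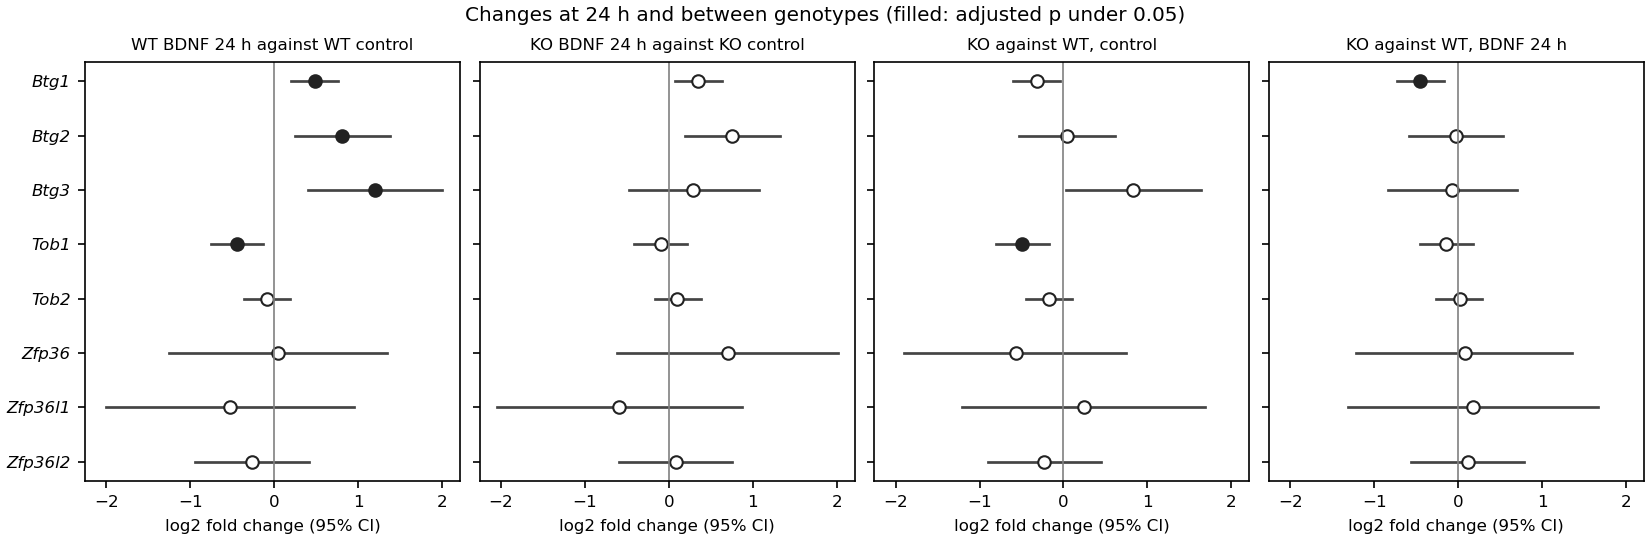
Log2 fold change with its 95% confidence interval for each gene in 4 comparisons: 24 h of BDNF in WT, 24 h of BDNF in KO, KO against WT in the control, and KO against WT at 24 h. Filled points passed an adjusted p of 0.05 in edgeR's test: 4 in WT at 24 h, none in KO at 24 h, Tob1 in the control comparison and Btg1 at 24 h.

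Without BDNF, Tob1 was the member called between the genotypes in the main fit. Its KO controls, at 13.1 to 14.8 CPM, all lay below the WT controls, at 15.9 to 22.0 CPM, a log2 fold change of -0.49 ± 0.15 (adjusted p = 0.0249). This 1 of 8 stands against 21.4% of all genes tested, 10.1% of them lower in KO. The call was lost without KO control replicate 4 (adjusted p = 0.0557), WT control replicate 3 (0.0757) or WT control replicate 4 (0.0717), and held without the libraries that stood apart (-0.46, adjusted p = 0.014). Without KO control replicate 3, 2 members were called, a count given here without the share of all genes. Within the second style of library names the Tob1 value was -0.66 (adjusted p = 0.08), and the first has 1 KO culture. Btg1 was at -0.32 ± 0.14 (adjusted p = 0.0993) and Btg3 at 0.83 ± 0.39 (adjusted p = 0.135). Btg2 started from the same range in both genotypes, with 0.04 ± 0.28 and a 95% interval of -0.53 to 0.62. The 10 astrocyte markers summed to 185 to 327 CPM in the KO controls and 462 to 632 CPM in the WT controls, 1 of them below 1 CPM in all libraries of both groups. Slc1a2 was by far the largest of the 10, at 159 to 575 CPM over all libraries, and Slc1a3 came next at 7.48 to 59.1 CPM. The astrocyte sum therefore weighs mostly on 1 gene. The microglia and macrophage markers summed to 2.01 to 7.7 CPM in the KO controls and 1.1 to 1.6 CPM in the WT controls. Their part in the Tob1 difference was not tested, and in these bulk libraries fewer cells of a type and less RNA per cell cannot be told apart.

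At 24 h of BDNF, Btg1 was the member called between the genotypes (1 of 8, against 13.3% of all genes, 6.16% of them lower in KO). KO libraries, at 20.1 to 26.5 CPM, all lay below WT libraries, at 28.0 to 35.8 CPM, with -0.45 ± 0.13 (adjusted p = 0.0283). The call was lost without KO 24 h replicate 1 (adjusted p = 0.0652), 2 (0.103) or 3 (0.06), or WT 24 h replicate 3 (0.0817) or 4 (0.0572), and held at -0.50 (adjusted p = 0.00472) without the libraries that stood apart. Within the second style of library names it was -0.57 (adjusted p = 0.374). Btg2 showed no difference over all libraries (-0.02 ± 0.27, adjusted p = 0.98). With KO 24 h replicate 4 alone left out the value was -0.58 (adjusted p = 0.0409), and without all libraries that stood apart it was -0.56 (adjusted p = 0.00594). The other 3 KO libraries, at 14.4 to 15.6 CPM, lay below all 4 WT libraries, at 17.5 to 28.1 CPM. Tob1 did not pass at 24 h (-0.14 ± 0.15, adjusted p = 0.638). The astrocyte markers, of which Slc1a2 was by far the largest, summed to 209 to 477 CPM in KO and 482 to 568 CPM in WT at 24 h. The microglia and macrophage markers summed to 2.76 to 4.78 CPM and 1.56 to 1.95 CPM. Their part was not tested.

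The make-up of the family changed with the response. Of the summed CPM per kilobase of the 8 genes, Btg2 held 22.6% ± 2.21 in the WT controls and 73.4% ± 1.88 at 30 min, where Tob1 held 17.9% ± 1.1 after 41.9% ± 2.45. In KO, Btg2 held 27.9% ± 2.3 in the controls and 65.1% ± 4.34 at 30 min. At 24 h Btg2 held 34.5% ± 6.18 in WT and Btg1 26.2% ± 1.77, with Tob1 at 27.1% ± 4.32. The most abundant member was thus Tob1 in the controls of both genotypes and Btg2 at 30 min. At 24 h the mean share of Btg2 was above that of Tob1 in WT, with overlapping ranges. In KO it was 35.5% ± 11.2 for Btg2 and 28.1% ± 4.29 for Tob1, but 29.9% ± 1.72 and 30.1% ± 2.12 (n = 3) without replicate 4.

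**Figure D5:**
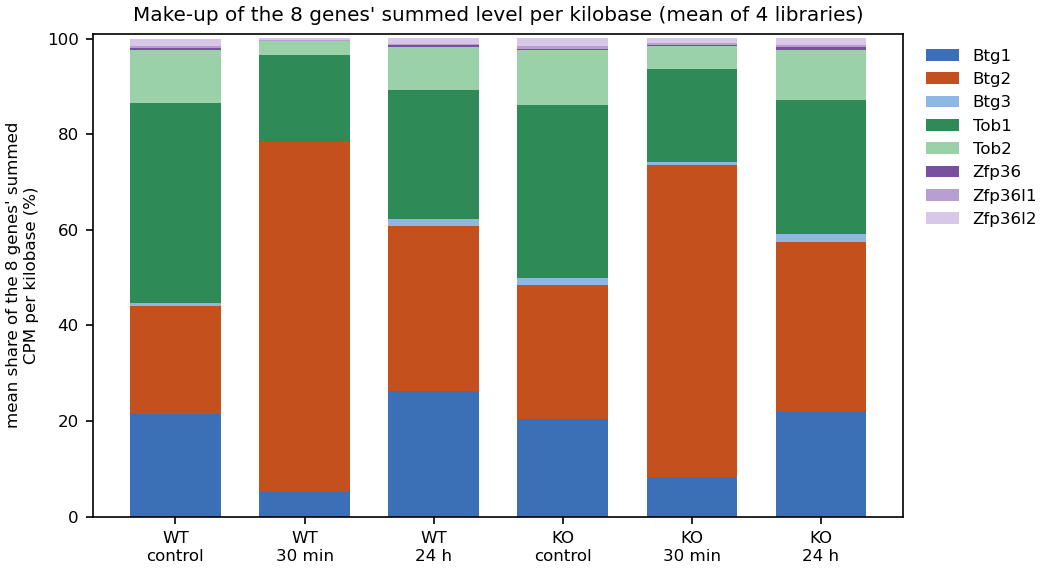
Mean share of each gene in the summed CPM per kilobase of the 8 genes, in percent, for the 6 groups of 4 libraries. Btg2 goes from 22.6% in the WT controls to 73.4% at 30 min and the 3 Zfp36 genes stay a thin band at the top in every group.

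The genes whose log2 CPM followed Btg2 most closely over the 24 libraries were Ier2 (Pearson r = 0.96), Egr4 (0.96), Egr3 (0.954), Egr1 (0.945) and Junb (0.942), all immediate early genes. Their levels in WT at 30 min were 154, 71.5, 75.6, 1175 and 175 CPM on average, and 64.2, 23.1, 14.7, 463 and 67.5 CPM in KO. In KO 24 h replicate 4, where Btg2 was at 42.6 CPM, Egr1 was at 187 CPM against at most 69.2 CPM in the other KO 24 h libraries, Ier2 at 29.4 against 17.5 CPM and Junb at 25.5 against 14.9 CPM. Tob1 was most like Egr3 (r = 0.951), Tob2 (0.945) and Ccno (0.92), and Tob2 most like Tob1, Ppp1r10 (0.937) and Egr3 (0.924). Btg1 was most like Rhob (0.931), Ptbp1 (0.907) and Jun (0.883). Among the genes most like Btg3 were Nectin3 (0.831) and Ly96 (0.81). For the sparse counts of Zfp36, Zfp36l1 and Zfp36l2 the highest r was 0.744, 0.778 and 0.745. These are descriptions over libraries that share the same 6 groups and, in threes, the same cultures.

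The machinery these proteins act through, with a list of target mRNAs, was followed in 9 lists of 150 genes, of which 148 were found by symbol and 141 were tested. The 25 tested target mRNAs, chosen with earlier results of these data known, are not machinery but are included in the totals. At 24 h in WT, 22 of the 141 rose and 9 fell (22.0% called beside 18.7% of all genes). With the replicate block 76 were called, or 53.9% beside 48.3% of all genes. In KO 12 rose and 2 fell (9.93% beside 5.61%). In the main fit the target mRNAs gave 10 of the 22 rises and 1 of the 9 falls in WT, and 7 of the 12 rises in KO. An excess over all genes is therefore not shown for the machinery alone. KO against WT, 14 were higher and 20 lower in the control (24.1% beside 21.4%, with 8 and 2 of them target mRNAs), and 4 higher and 14 lower at 24 h (12.8% beside 13.3%, with 3 and 0). Without the libraries that stood apart these last 2 counts were 56 and 46 of 142 (39.4% beside 30.6% of all genes, and 32.4% beside 31.2%). None of the 141 was called in the main edgeR fit for the difference of the 24 h response (6 had an unadjusted p under 0.05), beside 0.0358% of all genes. DESeq2 called 1, beside 0.122% of 45792 genes. Among the 11 CCR4-NOT genes 2 were called at 24 h in WT (18.2% beside 18.7% of all genes). Cnot8, a deadenylase that BTG and TOB proteins bind, fell (-0.31 ± 0.09, adjusted p = 0.0237) and Cnot4 rose (0.31 ± 0.10, adjusted p = 0.0375). In KO they had -0.25 ± 0.09 and 0.24 ± 0.10, neither called. The other such deadenylase, Cnot7, was lower in KO than in WT at 24 h (95.2 ± 11.8 against 123 ± 9.33 CPM, -0.37 ± 0.10, adjusted p = 0.0191). It had -0.25 ± 0.10 in the control (adjusted p = 0.0942) and -0.38 ± 0.10 at 30 min. Pabpc4, a cytoplasmic poly(A)-binding protein, rose at 24 h in both genotypes (0.40 ± 0.10 in WT, adjusted p = 0.00444, and 0.38 ± 0.10 in KO, adjusted p = 0.0199). Among the genes of 19 other proteins that bind AU-rich elements, 2 were higher and 6 lower in KO in the control (42.1% called beside 21.4% of all genes). Elavl4, a neuronal stabiliser of such mRNAs, was lower there (-0.63 ± 0.12, adjusted p = 5.66e-04) and Auh, an AU-binding mitochondrial hydratase, was higher (0.75 ± 0.10, adjusted p = 2.19e-05).

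Of 25 tested mRNAs known as targets of AU-rich decay, 10 rose and 1 fell at 24 h in WT (44.0% called beside 18.7% of all genes), with a median log2 fold change of 0.56 over the list (-0.01 over all genes). In KO 7 rose (28.0% beside 5.61%), with a median of 0.45 (-0.03 over all genes). This list was drawn up with the rapid response of several of its genes known. Cdkn1a, a cell cycle inhibitor, was at 199 ± 23.3 CPM at 24 h in WT against 72.3 ± 6.18 CPM in the control (1.46 ± 0.12, adjusted p = 6.29e-08). Vegfa rose in both genotypes (0.83 ± 0.11 in WT, adjusted p = 8.66e-06, and 0.72 ± 0.11 in KO, adjusted p = 4.59e-04). In the KO controls 8 of the 25 were higher than in WT and 2 lower (40.0% beside 21.4% of all genes, 11.3% of them higher and 10.1% lower). Without the libraries that stood apart 11 of 26 were higher and 4 lower (57.7% beside 30.6% of all genes). Among them were the rapid genes Fos (1.23 ± 0.30, adjusted p = 0.00519), Nr4a1 (0.86 ± 0.31, adjusted p = 0.0492) and Dusp1 (0.75 ± 0.22, adjusted p = 0.0152), beside which the value of Btg2 was 0.04 ± 0.28. At 30 min, as a description, these 3 stood at 772, 500 and 224 CPM in WT and at 433, 200 and 150 CPM in KO.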

How the data were processed

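Polyadenylated RNA of 24 libraries was sequenced with a stranded TruSeq mRNA kit, per the labels' protocols. The authors deposited raw counts of reads per gene, without normalisation. Per the submitters' processing notes, the tools were STAR 2.7.9a, edgeR 3.40.2, limma 3.54.2 and DESeq2 1.38.3, and the build was mm10. The counting program, its strand setting and annotation release are not given in any source used here. GENCODE M21 named 45229 genes (98.8%), and unnamed rows held 0.066% of the counts.

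The counts of all genes passing filterByExpr (minimum 10, total 15) were fitted in 1 model with edgeR 4.0.16 (R 4.3.3), with TMM factors of 0.824 to 1.07, 1 mean per group, 18 residual degrees of freedom and a BCV (biological coefficient of variation) of 23.5%. Adjusted p-values are from the quasi-likelihood test with Benjamini-Hochberg adjustment over 16777 genes. Those under 0.05 were called. SE is the log2 fold change over the square root of F, and intervals are 95%. CPM use TMM factors, and log2 CPM a prior count of 2. Library totals set the precision. The series text calls the 4 samples of a group biological replicates.

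The members and lists were chosen with earlier results of these data known. Named genes are the 8 members, Hist2h2be, up to 4 called genes per list and contrast by smallest adjusted p (also given under other contrasts), and the 5 (Btg2) or 3 (other members) genes with the highest Pearson r among those with a mean of at least 1 CPM, predicted gene models passed over; 1 such result is not reported here. Alternatives were DESeq2 1.42.0, RLE factors, the compared groups only, no filter, a replicate block, the sets of library names, and leaving out libraries. Within a genotype, libraries with the same replicate number share a culture code in the labels, and deviations from group means correlated over 0.1 in 23 of 24 pairs (0.003 to 0.837), so the code was used as the block within each genotype. Between genotypes only a number is shared.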

Additional observations from a re-analysis of the deposited data

Results flagged for a closer look

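Btg2 in KO 24 h replicate 4 was at 42.6 CPM (2492 counts), while the other 3 KO 24 h libraries lay between 14.4 and 15.6 CPM, a gap too wide for a group of 4 by Dixon's test. The same library had the low Hist2h2be level (21.2 CPM) and held both Xist and Y-linked reads.

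Zfp36l1 in KO 30 min replicate 3 was at 1.39 CPM (27 counts), while the other 3 KO 30 min libraries lay between 0.0904 and 0.288 CPM, which Dixon's test also marked. This was the shallowest library. Both are among 48 groups of 4 so examined, and chance marks about 1 group in 20.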

How the results depend on the processing

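The members called at 24 h in WT (4) were 2 with no filter on low counts and 0 in the second set, the libraries with the second style of names (2 WT and 3 KO cultures). Of all genes, 8.47% and 1.37% were called there, against 18.7%. The second set also gave 0 for KO against WT in the control and at 24 h (1 each). It called 3.45% and 0.0634% of all genes, against 21.4% and 13.3%. Without the libraries that stood apart, an alternative chosen after seeing the data, the count at 24 h was 2 (31.2% of all genes). Of the members described at 30 min, the count in WT (4) was 5 with the replicate block and 2 in the second set (1.15% and 0.144% of all genes, against 0.37%). In KO (2) it was 1 with the compared groups only, with the replicate block and in the second set (0.107%, 0.13% and 0.0576% of all genes, against 0.125%). For the difference (1) it was 3 with DESeq2, 2 with no filter, 3 with the replicate block and 0 in the second set. The shares of all genes there were 0.048% (of 45792), 0.051%, 0.179% and 0%, against 0.0477%. Pathway genes called at 24 h in WT (31) were 76 with the replicate block and 3 in the second set (48.3% and 1.37% of all genes were called there, against 18.7%), and in KO (14) 8 with the compared groups only, 2 in the second set and 16 without the libraries that stood apart. For the difference at 24 h (0) 1 was called by DESeq2, with no filter, with the replicate block and without the libraries that stood apart. Of all genes, 0.122% (of 45792), 0.0408%, 1.78% and 0.638% were called there, against 0.0358%. KO against WT, the 34 in the control were 6 in the second set and 56 without the libraries that stood apart (3.45% and 30.6% of all genes), and the 18 at 24 h were 0 and 46 (0.0634% and 31.2%). Leaving out each library in turn gave 0 to 4 members in WT at 24 h, 0 in KO and for the difference, and 0 to 2 for KO against WT in the control and at 24 h. At 30 min it gave 4 in WT, 1 to 2 in KO, 0 to 2 for the difference and 4 to 5 for KO against WT. For the pathway genes it gave 25 to 29, 9 to 13 and 0 to 1 for the WT, KO and difference contrasts at 24 h, and 21 to 34 and 11 to 24 for KO against WT in the control and at 24 h. No share of all genes stands beside these counts with a library left out. They show how far the calls moved and are no result about the members or lists. Alternative values were followed for the members called in the main fit in a 24 h or control comparison, and for Btg2 in KO against WT at 24 h. Of these 109 values 6 changed sign, all of Btg2 in KO against WT at 24 h (-0.02): 0.05 in the second set, 0.09, 0.12 and 0.13 without KO 24 h replicate 1, 2 or 3, and 0.03 and 0.10 without WT 24 h replicate 1 or 3. Without KO 24 h replicate 4 that value was -0.58 (adjusted p = 0.0409). At 30 min 19 of 568 alternative values changed sign, all of Btg3, Zfp36 or Zfp36l1. The cause of these shifts was not tested. Counts of Zfp36 and Zfp36l1 (at most 54 in a library) limit what could be seen. The replicate block changed no other call of a member in the tested contrasts. No paired analysis was possible for KO against WT because the genotypes share no culture.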
